A study of Homo sapiens with 10 samples.

Results

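The 300 densest clusters of RNA polymerase II (Pol II) regions away from gene ends in hTERT-RPE1 cells held 1581 regions, which were 8.11% of the 19504 distal Pol II regions and 5.10% of all 30981 Pol II regions. A Pol II region was a merged interval on chromosomes 1 to 22 and X that held a peak of both Pol II peak lists, and it was distal when no end of any RefSeq gene lay within 2 kb of it. Distal regions with short gaps, of 12482 bases at most, were stitched into 14620 domains, and the 300 domains with the most regions were kept, with ties broken by summed region bases. The number, position and size of the Pol II regions therefore chose the members, and every Pol II value given for them is a description and not a test. The way of stitching is that used for super-enhancers, and the domains are called super-enhancer-like in that sense only.

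Pol II and the histone mark H3K4me1 were profiled by CUT&Tag, in which an antibody guides a Tn5 transposase to cut and tag the DNA beside its target, in wild-type hTERT-RPE1 cells grown under the supplier's conditions. This is an immortalised human line from retinal pigment epithelium that carries the telomerase gene hTERT, and no treatment or second genotype was present. The Pol II antibody recognised the form phosphorylated on serine 5 of the tail repeats, with 6 libraries, and H3K4me1 had 4 libraries. The deposited files are 2 peak lists for each target, named list 1 and list 2 here, into which the authors had merged 3 libraries each for Pol II and 2 each for H3K4me1.

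Enhancers are stretches of DNA that raise transcription from promoters at a distance, and active ones recruit Pol II and give short transcripts of their own. Nucleosomes at enhancers carry H3K4me1, while Ser5-phosphorylated Pol II is the form that has begun transcription and often sits close to a start site. Clusters of enhancers, often called super-enhancers, are known to lie near genes that define a cell type.

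The lists held 49351 and 47180 Pol II peaks and 123666 and 124465 H3K4me1 peaks on the chromosomes used, and 104482 H3K4me1 regions held a peak of both lists. The files hold no read counts, so the depth is unknown, and every interval given covers only the counting of regions or genes. Nothing in the labels says whether the lists came from separate cultures, and 2 lists against 2 cannot give an exact permutation p below 0.333, so no test between targets or groups was made. Of 10 marker genes of retinal pigment epithelium, 3 (PMEL, KRT8 and KRT18) had Pol II in both lists no farther than 1 kb from an end, while RPE65, RLBP1, TYR, MITF and LRAT had none in either list, and no marker of the 10 was linked to a domain. Such Pol II was found at 3 of 5 fibroblast and mesenchymal, 2 of 3 neuron, 0 of 3 blood, 0 of 2 hepatocyte and 0 of 2 muscle markers, and at 39.4% of all coding genes.

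The promoters of 3 genes that host leading domains are printed because a Pol II region of both lists lay on each of them, so that domain and promoter were both occupied. They are 300 bases from RefSeq on build GRCh38.p14, from 250 bases before to 50 bases after the start, 5′ to 3′ on the gene's strand. Capitals mark matches on either strand to AP-1 letters (TGANTCA), TEAD letters (GGAATG), the cAMP response element (TGACGTCA) and the GC box (GGGCGG). MYH9 encodes the heavy chain of non-muscle myosin IIA, FN1 the matrix protein fibronectin, and TGFB2 a ligand of the TGF-beta family.
MYH9, chr22:36387918-36388217, minus strand: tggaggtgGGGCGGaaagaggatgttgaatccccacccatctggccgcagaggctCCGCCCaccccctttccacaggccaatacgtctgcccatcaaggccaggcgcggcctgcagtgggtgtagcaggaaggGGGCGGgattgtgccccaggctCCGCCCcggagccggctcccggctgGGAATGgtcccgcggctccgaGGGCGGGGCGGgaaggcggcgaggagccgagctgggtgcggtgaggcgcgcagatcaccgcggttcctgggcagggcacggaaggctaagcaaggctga
FN1, chr2:215436019-215436318, minus strand: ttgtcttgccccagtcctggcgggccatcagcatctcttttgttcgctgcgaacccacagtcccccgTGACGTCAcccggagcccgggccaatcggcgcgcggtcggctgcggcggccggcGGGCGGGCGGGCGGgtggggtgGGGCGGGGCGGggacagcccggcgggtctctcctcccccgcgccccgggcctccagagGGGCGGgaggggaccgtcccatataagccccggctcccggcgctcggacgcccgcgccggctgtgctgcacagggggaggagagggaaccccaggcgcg
TGFB2, chr1:218345086-218345385, plus strand: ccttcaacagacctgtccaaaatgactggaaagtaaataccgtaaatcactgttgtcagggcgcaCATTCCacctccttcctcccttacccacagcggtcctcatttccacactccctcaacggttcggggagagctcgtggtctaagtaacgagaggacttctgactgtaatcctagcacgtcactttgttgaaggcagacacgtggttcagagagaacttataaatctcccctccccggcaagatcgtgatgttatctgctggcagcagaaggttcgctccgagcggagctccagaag
The deposited fold of the Pol II peak on the MYH9 promoter was 3.73 in list 1 and 2.67 in list 2, on FN1 3.80 and 3.09, and on TGFB2 3.79 and 3.56. The MYH9 promoter held 1 TEAD and 6 GC box matches, that of FN1 held 1 cAMP response element and 6 GC boxes, and that of TGFB2 held 1 TEAD match and no GC box. None of the 3 held AP-1 letters.

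AP-1 letters are shown next because, among promoters with a Pol II region, they were found at a larger share of host genes than of all genes, by the largest factor of the 9 patterns searched. A RefSeq promoter could be matched for 177 host genes, and a Pol II region of both lists overlapped 75 of these (42.4%), against 34.1% of all 15812 promoters in the table. At 13 of them that region was itself a member, since the table's start can lie inside the gene, and with distal regions left out the shares were 33.3% (59 promoters) and 33.1%. Of those 75, 11 held TGANTCA (14.7%), against 4.60% of the 5396 promoters with a Pol II region and 5.76% of all promoters. Without distal regions it was 9 of 59 (15.3%), against 4.57%, and over all 177 host promoters with or without Pol II it was 15 (8.47%). TEAD letters were in 12 of the 75 (16.0%, against 10.7% and 11.7%), OTX letters (GGATTA) in 7 (9.33%, against 4.28% and 5.31%), and the GC box in 48 (64.0%, against 72.1% and 58.5%, with 66.7% of all host promoters). RUNX letters (TGTGGT) and the E-box CACGTG were each in 6 (8%), below the 9.30% and 10.1% of promoters with Pol II. These counts are small, and a match describes letters and not bound factors. A pair of the 11 promoters is printed, that of ITGA5, which encodes the alpha-5 chain of the fibronectin receptor, and that of BAG3, a co-chaperone, with only the AP-1 letters in capitals.
ITGA5, chr12:54419217-54419516, minus strand: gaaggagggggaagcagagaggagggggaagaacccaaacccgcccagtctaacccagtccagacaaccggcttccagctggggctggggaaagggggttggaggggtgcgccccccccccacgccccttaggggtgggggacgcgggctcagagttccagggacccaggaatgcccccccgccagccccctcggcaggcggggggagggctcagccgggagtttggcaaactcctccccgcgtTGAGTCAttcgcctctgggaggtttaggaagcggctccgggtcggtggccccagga
BAG3, chr10:119651130-119651429, plus strand: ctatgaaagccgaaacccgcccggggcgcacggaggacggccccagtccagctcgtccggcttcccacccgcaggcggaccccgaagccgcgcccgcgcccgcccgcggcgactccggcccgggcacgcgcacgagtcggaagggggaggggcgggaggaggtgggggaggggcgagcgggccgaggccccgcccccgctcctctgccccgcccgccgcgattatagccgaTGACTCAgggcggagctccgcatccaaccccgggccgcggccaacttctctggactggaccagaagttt
In ITGA5 the match began 6 bases before the start, and in BAG3 19 bases before it. The Pol II fold on the ITGA5 promoter was 3.10 in list 1 and 2.49 in list 2, and on the BAG3 promoter 5.74 and 4.30. The other 9 promoters with these letters belong to ADAMTS12, ANXA2, TRAPPC3, ARSJ, NIBAN2, EZR, SEC31A, ABL2 and CAPN2.

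A small part of the microRNA genes lay near domains. Those near domains in long non-coding RNA genes are printed because several pairs share a host gene or a seed. Of 1560 hairpins in the RefSeq table, 48 lay within 50 kb of 36 domains, and 1, MIR6827 in the AMOTL2 domain, lay inside a domain. At the same distance, or by overlap, 471 of 19974 coding genes (2.36%) were linked to a domain. The count of hairpins is therefore not read as a trait of the domains. The mature sequences are from RefSeq (GRCh38.p14), with the seed, bases 2 to 8, in capitals.
hsa-miR-221-3p: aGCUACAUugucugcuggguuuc
hsa-miR-222-3p: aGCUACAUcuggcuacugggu
hsa-miR-29a-3p: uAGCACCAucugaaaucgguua
hsa-miR-29b-3p: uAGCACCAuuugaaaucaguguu
hsa-miR-100-5p: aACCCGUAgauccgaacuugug
hsa-let-7a-5p: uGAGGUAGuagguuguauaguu
hsa-miR-31-5p: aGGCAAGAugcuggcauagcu
miR-221 and miR-222, which share the seed GCUACAU and are known for targeting cell cycle inhibitors, lay 4.02 and 3.17 kb from the edge of the domain at MIR222HG, number 19 by the rule, at chrX:45750290-45789313. That domain had 8 regions with a mean Pol II fold of 3.77 in list 1 and 3.11 in list 2, and 5 of the 8 were on H3K4me1. miR-29a and miR-29b share the seed AGCACCA and are known for targeting collagen transcripts. Their hairpins lay 10.1 and 9.35 kb from the domain at LINC-PINT, number 21, whose 8 regions had mean folds of 2.85 and 2.31 and of which 7 were on H3K4me1. miR-100 and let-7a, which have different seeds, lay 18.4 and 24.1 kb from the domain of 7 regions at MIR100HG, with mean folds of 6.62 and 5.62. miR-31 lay 36.8 kb from the domain of 5 regions at MIR31HG, with mean folds of 6.55 and 5.38. The domains at MIR222HG and LINC-PINT thus had lower mean folds than those at MIR100HG and MIR31HG in both lists, and the files hold no microRNA levels.

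Most distal Pol II regions were alone: 11465 of the 14620 stitched domains (78.4%) held 1 region, 2178 held 2 and 606 held 3. The 300 domains kept were all 183 domains of 5 or more regions and 117 of the 188 domains of 4. They held 4 to 19 regions with a median of 5, spanned 8.502 to 78.096 kb with a median of 26.2 kb, and covered 8.35 Mb in all. Pol II regions filled a median of 13.9% of a domain's span, and the gap between neighbours inside a domain was 5.395 kb at the median, against 38.6 kb between neighbouring distal regions in general. The last domain inside the limit, in NF2 at chr22:29621774-29637093, had 4 regions of 2506 bases in all, and the first outside it, in SYNE2 at chr14:63853954-63870842, had 4 regions of 2501 bases. Gaps reached 12482 bases inside domains and the smallest gap above the limit was 12502 bases. The closest member lay 2003 bases from a gene end, and the farthest region left out for its distance lay 1999 bases from one.

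The MYH9 domain, at chr22:36325154-36399023, came first with 19 regions over 73.9 kb. Its regions ran through the 5′ part of MYH9, across the promoter and into the divergent non-coding gene MYH9-DT, with 17 of the 19 inside MYH9. The Pol II fold of these regions averaged 2.76 in list 1 and 2.22 in list 2, and 14 were on H3K4me1. The lowest fold of a region was 1.52 in list 1 and, in another region, 1.47 in list 2. The domain's highest values were 6.85 in list 1 and 5.09 in list 2, in the pair of regions upstream of the gene. Regions on H3K4me1 had a median fold of 2.51 and 2.04 and those off it of 2.01 and 1.65, with ranges that overlapped in both lists.

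The FN1 domain, at chr2:215363852-215441947, also held 19 regions and was the longest, at 78.1 kb. It covered almost all of the 75204 bases of the gene, with 18 regions inside it, and its mean folds were 2.81 in list 1 and 2.19 in list 2. Of its 19 regions, 6 were on H3K4me1, fewer than in the MYH9 domain. Those 6 had a median fold of 3.39 and 2.53 against 2.44 and 2.02 for the 13 off H3K4me1, again with overlapping ranges. The region with the highest fold, chr2:215410604-215411423, reached 5.67 in list 1 and 3.07 in list 2 and carried H3K4me1 peaks of fold 5.19 and 6.91.

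Number 3 by the rule, at chr4:49091601-49155509, was a domain outside every annotated gene, 29.5 kb from the coding gene CWH43. Its 15 regions had deposited mean Pol II folds of 5.34 and 4.60, higher than those of MYH9 and FN1 in both lists. The domain lies beside a centromere, where the assembly holds repeated sequence, so these folds may not be comparable with those of the genes. None of the 15 regions was on H3K4me1, and neither list had an H3K4me1 peak in the domain or in flanks of the same length.

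**Figure D1:**
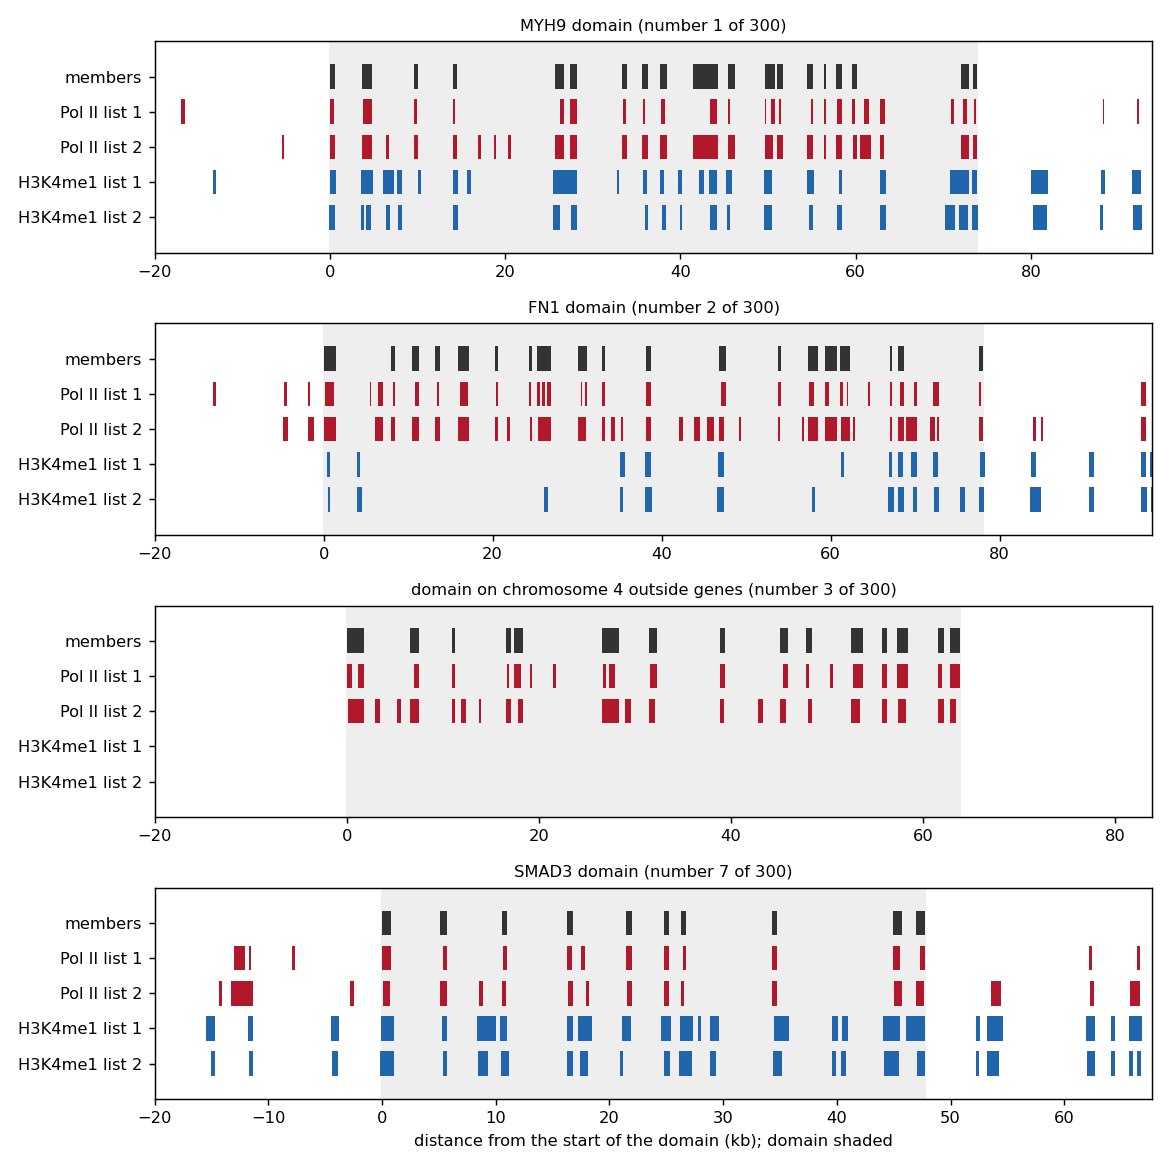
Peaks of each list and the member regions in 4 domains, against the distance from the domain's start in kb, with the domain shaded. The MYH9 and SMAD3 domains carry H3K4me1 along their length, the FN1 domain mostly in its right part, and the domain on chromosome 4 carries none.

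TGFB2 held 11 regions, at chr1:218348133-218380952, which began 2.797 kb past the gene's start. They averaged a Pol II fold of 3.31 in list 1 and 2.34 in list 2, and 7 were on H3K4me1. SMAD3, a transcription factor activated by TGF-beta receptors, held 10 regions at chr15:67080562-67128315, and all 10 were on H3K4me1. Their folds ranged from 3.41 to 7.09 in list 1 and from 2.45 to 4.33 in list 2. A second domain of 4 regions lay 15.6 kb from SMAD3 in the divergent gene SMAD3-DT, at chr15:67041527-67050028. H3K4me1 regions covered 53.9% of it, the highest share of the 300. SMURF2, a ubiquitin ligase that acts on this pathway, held 7 of the 10 regions of its domain, with mean folds of 7.34 and 5.15, and 9 of the 10 were on H3K4me1. A second domain of 6 regions, 35.1 kb from TGFB2 at chr1:218479692-218499322, had mean folds of 6.69 and 4.85, with all 6 regions on H3K4me1. The domain inside TGFB2 was thus lower in Pol II fold than the one beside it and than those of SMAD3 and SMURF2 in both lists.

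The first 20 domains held 207 members in all. MACF1, which links actin to microtubules, held 9 regions with mean folds of 5.44 and 4.598, all on H3K4me1. DLC1 held 3 domains with 23 regions, the most of any gene. ACTN4, an actin crosslinker, held 8 regions with mean folds of 3.79 and 2.83, all on H3K4me1. EPHA2, a receptor tyrosine kinase for ephrins, held 5 of the 9 regions of its domain. LMNA, which encodes the nuclear lamins A and C, held 9 regions with mean folds of 3.73 and 2.997, of which 8 were on H3K4me1, and MYOF, a membrane repair protein, held 9 with 7 on H3K4me1. The others of the first 20 lay in ATXN1 (10 regions, 10 on H3K4me1), JMJD1C (10 regions, 7 on H3K4me1), DLG1 (9 and 5), FHL2 (8 and 6), EXT1 (8 and 4), KLF7 (8 and 7) and at MIR222HG. The RefSeq promoter of JMJD1C overlapped a member of its domain. By length, the FN1 and MYH9 domains were followed by those of JMJD1C (72.1 kb), SMURF2 (69.2 kb) and GNG12 (65.1 kb).

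Of the 1581 members, 1304 (82.5%, 95% Wilson interval 80.5 to 84.3) overlapped an H3K4me1 region of both lists, where the share of all 19504 distal regions was 89.2%. For the 17923 distal regions outside the 300 domains it was 89.8% (89.3 to 90.2), a difference of -7.29 points. The order was the same with each H3K4me1 list taken alone: 84.2% of members against 90.7% of other distal regions were on list 1, and 84.6% against 90.9% on list 2. When the clusters were built from Pol II list 1 alone the difference was only -1.07 points, while list 2 alone gave -6.15. The H3K4me1 peaks themselves were lower, with a median fold of 4.74 in list 1 and 4.93 in list 2 on members and 6.71 and 7.05 on other distal regions.

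The share on H3K4me1 was lower in the larger stitched domains. It was 89.4% for single regions, 90.7% in domains of 2, 90.4% in domains of 3, 87.8% in domains of 4, 83.0% in domains of 5 to 6, 80.2% in domains of 7 to 9 and 60.6% in the 8 domains of 10 or more. The regions of the last class share few domains: without the domain on chromosome 4 their share was 70.8% (60.6 to 79.2), and without the FN1 domain as well 81.4% (70.8 to 88.8). Up to domains of 3, the shares stayed within 2 points of each other in both lists, and they were lower from domains of 5 onward.

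The Pol II fold moved with the size of the cluster as well. The median fold of the members was 5.13 in list 1 and 4.18 in list 2, and that of other distal regions 6.33 and 5.43, so that the clustered regions were numerous but individually lower. Their median width was 679 bases against 581, and their median -log10 q was higher, 9.32 and 9.63 against 7.95 and 7.48. Among regions with a mean fold under 4, 66.4% of 571 members (62.4 to 70.1) and 68.6% of 2039 other distal regions (66.5 to 70.5) were on H3K4me1. From 4 to 8 the shares were 90.9% of 846 members (88.8 to 92.7) and 91.6% of 12231 others (91.1 to 92.1), and at 8 or more 95.1% of 164 (90.7 to 97.5) and 95.5% of 3653 (94.8 to 96.1). Members were lower in each of the 3 classes, by less than in the whole set, and the intervals overlapped within each. A mean fold under 4 was found in 36.1% of members and 11.4% of other distal regions, and its part in the difference was not tested. The split by fold was chosen after the values had been seen.

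**Figure D2:**
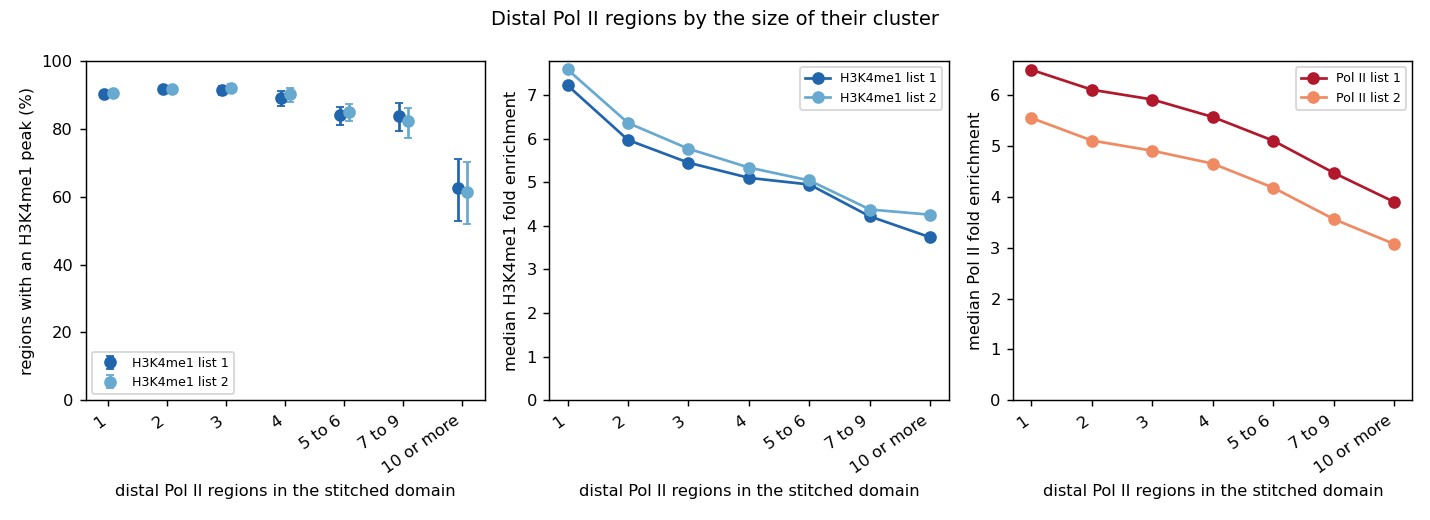
Share of distal Pol II regions with a peak of each H3K4me1 list (left, bars are 95% Wilson intervals), median fold of those H3K4me1 peaks (middle) and median Pol II fold (right), against the number of distal regions in the stitched domain. The shares on each list are above 89% up to domains of 4 and about 62% at 10 or more, and both medians are lower in larger clusters in each list.

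Where the members lay made a difference to the same comparison. Inside protein-coding genes 83.4% of 1208 members (81.2 to 85.4) and 88.4% of 11457 other distal regions (87.8 to 88.9) were on H3K4me1. Outside them the shares were 79.4% of 373 members (74.96 to 83.2) and 92.2% of 6466 others (91.6 to 92.9). Of the 373 members outside genes, 62 lay in 10 domains that held no H3K4me1 base. Without these 10, 95.2% of 311 members outside genes (92.2 to 97.1) were on H3K4me1. The 10 were picked out by their H3K4me1 value, so this share could only rise. The others were not filtered in that way, so their 92.2% is no like comparison and no direction is read from it. Over both places 85.8% of the remaining 1519 members (84.0 to 87.5) were on H3K4me1.

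Within the domains H3K4me1 was concentrated on the Pol II regions and denser than around them. H3K4me1 regions covered 77.3% of the bases of members and 12.4% of the bases between them. They covered a median of 23.02% of a domain's span and 11.4% of flanks of the same length on both sides. In list 1 alone the medians were 21.7% and 10.7%, and in list 2 alone 20.4% and 9.64%. Coverage was higher inside than in the flanks in 273 of the 300 domains and lower in 17, with both at 0 in the others, and taken singly the lists gave 277 and 279 domains with more inside. The spans were drawn around Pol II regions, which lie on H3K4me1 in most places, so a higher share inside follows in part from how domains were chosen.

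**Figure D3:**
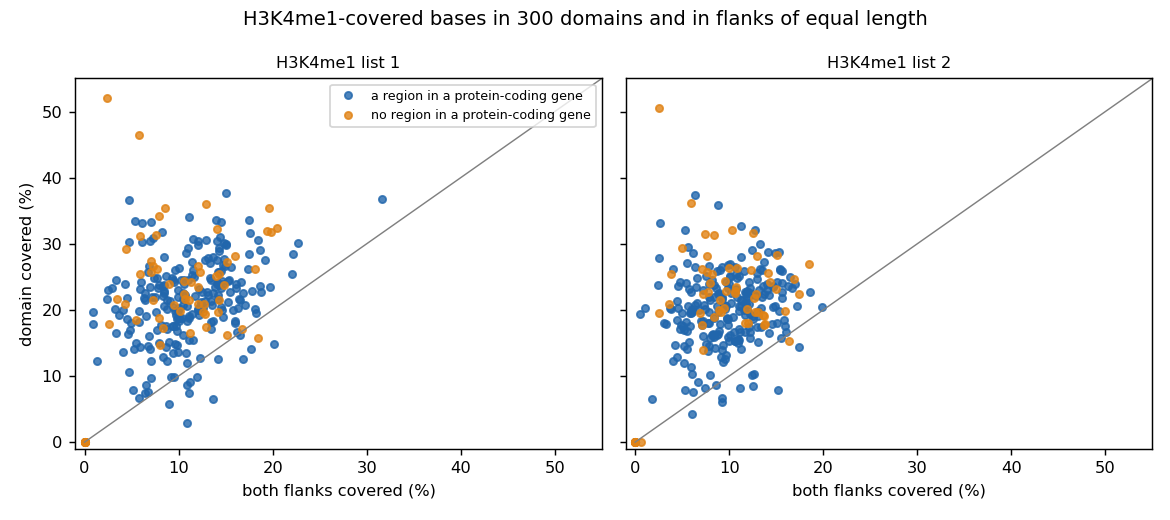
Share of each domain's span inside peaks of H3K4me1 list 1 (left) and list 2 (right), against the share of both flanks of equal length; each point is 1 of the 300 domains and the line marks equal shares. Most points lie above the line in both lists, and a group at 0 on both axes consists of domains outside protein-coding genes.

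Of the 1654 H3K4me1 regions inside the domains, 1262 (76.3%) held a member. Of all H3K4me1 regions, 25.8% held a Pol II region, with those near gene ends counted too. The higher share inside follows from the rule, since the domains were drawn around Pol II regions. Every region was on H3K4me1 in 172 domains and all but 1 in 72, while at most 50% were in 34 domains. Around the centres of members, H3K4me1 coverage was 80.2% in list 1 and 80.1% in list 2 at the centre, and at 5 kb to the right 12.7% and 10.8%. Single distal regions had more at the centre, 88.8% and 89.0%, and less at that distance, 5.08% and 4.57%. Members were chosen for having other distal Pol II regions nearby, and single regions have no other distal one close enough to be stitched. Pol II near gene ends was not considered in either choice. The higher values at a distance follow in part from this rule, and how large that part is was not tested.

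**Figure D4:**
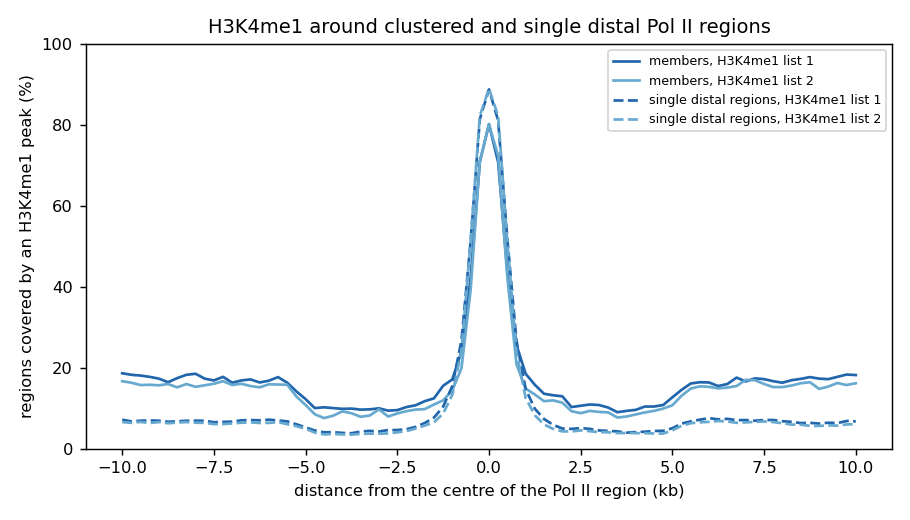
Share of regions covered by an H3K4me1 peak against the distance from the region's centre in kb, for the 1581 members (solid) and the 11465 single distal regions (dashed), in each H3K4me1 list. At the centre members are at about 80% and single regions at about 89%, and 10 kb away members are at 16.2% to 18.7% and single regions at 6.09% to 7.18%.

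In 10 domains with 62 members (3.92% of all), H3K4me1 covered no base of the span. The 5 with the most regions were that on chromosome 4, one of 7 regions at chr3:195478457-195505266, 9.16 kb from PPP1R2, and 3 of 6 regions at chr10:41873765-41899897, chr16:34572586-34593638 and chr1:143214343-143254939. Of the 10, 7 lay more than 100 kb from the nearest coding gene, and the nearest peak of an H3K4me1 list was 10.5 to 1234 kb away. Their Pol II peaks were not weaker in both lists than those of the other members: the median fold was 4.88 in list 1 and 4.34 in list 2, against 5.13 and 4.17. They were wider, with a median of 852 bases against 672. For these domains the data go against the name super-enhancer-like, which fits them by the count of Pol II regions alone. Several of the 10, that on chromosome 4 among them, lie beside centromeres, where the genome assembly holds repeated sequence, so their Pol II folds carry that limit. No list of such stretches was used here. One further domain, of 4 regions in INHBA at chr7:41689075-41703289, had no region on H3K4me1 of both lists, although H3K4me1 peaks covered 15.1% of it in list 1 and 10.1% in list 2. The RefSeq promoter of INHBA overlapped a member.

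The highest mean Pol II folds were found in domains of 4 or 5 regions: FRMD6 (10.95 in list 1 and 7.16 in list 2), the domain 16.0 kb from RGS1 (9.69 and 8.75), that 321 kb from ACTBL2 (10.4 and 7.37), LRRC8D (9.80 and 7.37) and that 8.64 kb from CAV1 (9.63 and 7.20). CAV1 encodes caveolin, the coat protein of surface pits called caveolae, and FRMD6 a regulator of the Hippo pathway. Every region of these 5 domains was on H3K4me1. The lowest mean folds were those in TPM1 (1.80 and 1.66), at NEAT1 (2.20 and 1.94), in SLC2A1 (2.52 and 1.81), TIPARP (2.67 and 2.04) and EZR (2.77 and 2.14). In TPM1, which encodes tropomyosin, an actin-binding protein, 1 of 7 regions was on H3K4me1, at folds of 1.51 and 1.52, and the 6 others ranged from 1.66 to 2.16 in list 1 and from 1.55 to 1.78 in list 2. A second domain 18.7 kb from TPM1, at chr15:63013206-63024043, had 4 regions with mean folds of 4.10 and 3.48, all on H3K4me1, which covered 46.4% of it in list 1 and 36.2% in list 2. The 2 TPM1 domains thus differed in the share of their regions on H3K4me1. After SMAD3-DT and the second TPM1 domain, the highest H3K4me1 shares over both lists were in PXDN, CD44 and ERRFI1-DT.

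The 5 strongest single members all carried H3K4me1. In LRRC8D, a subunit of volume-regulated anion channels, chr1:89906394-89907258 reached a Pol II fold of 17.9 in list 1 and 12.1 in list 2. Near RGS1, a regulator of G-protein signalling, chr1:192539620-192540243 reached 16.3 and 13.3. Near FBN1, which encodes the microfibril protein fibrillin-1, chr15:48680730-48681594 reached 16.1 and 13.2. The other 2 lay in FRMD6 (17.7 and 11.5) and PRR5L (17.3 and 11.6). List 1 was higher than list 2 for each of these 5 and in 294 of the 300 domain means. Across the 300 domains the mean folds of the lists had a Pearson r of 0.922, a description over domains that were chosen from both lists.

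Within a domain the regions were uneven. The ratio of the strongest to the weakest region's mean fold had a median of 2.10, and the SD of folds within a domain had a median of 1.56, close to the SD of 1.43 between domain means. The strongest region was the first or last of its domain in 144 of 300 domains. Such edge regions were 38.0% of all members, a share that counts large domains more and is lower than the one expected per domain. A gene end fell inside the span of 73 domains, and 29 domains spanned in all 38 Pol II regions within 2 kb of a gene end, which are not members.

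Of the members, 1208 (76.4%) lay inside a protein-coding gene, where the share of all distal regions was 64.9%. In 201 domains (67%) every region lay in 1 such gene, 35 more had part of their regions in 1, and 64 had none, of which 39 had no region in any gene. The 213 host genes were long, with a median of 106.8 kb against 24.2 kb for all coding genes. Pol II of each list lay at an end, no farther than 1 kb away, in 108 hosts (50.7%), where the share of all coding genes was 39.4%. Hosts of 50 to 100 kb had it at 41 of 66 (62.1%, against 45.7% of all coding genes of that length), those of 100 to 200 kb at 31 of 60 (51.7%, against 38.5%), and those of 200 kb or more at 17 of 52 (32.7%, against 29.9%). Along the host gene, members lay at a median of 41.0% of the way from start to end, and other distal regions in coding genes at 46.7%. The stretch before 50% held 61.9% of 1001 members and 53.5% of 9348 other distal regions. As a share of gene length, members thus lay somewhat nearer to the start than other distal regions. In bases, the median distance to the nearest end of any gene was larger for all members, 17.0 kb, than for all other distal regions, 13.1 kb. Besides DLC1 with its 3 domains, MAML2, a Notch co-activator, held 3 domains with 14 regions, MACF1 held 2 domains with 16 regions, MYOF 2 with 14 and EXT1 2 with 13, and 21 genes held 2 or more.

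Gene groups were compared by linking to a domain each coding gene whose body it overlapped or whose end lay within 50 kb, which held for 471 of 19974 coding genes (2.36%). Of 26 genes of adhesion and the actin cytoskeleton, 16 were linked (61.5%, interval 42.5 to 77.6), the highest share of the 14 groups examined. A domain overlapped 14 of these genes, while ITGA3 and TLN1 were linked by distance only. The group was assembled with results of these data known, so its rank, interval and shares by length are a description and not a test. Besides MYH9, MACF1, DLC1 and ACTN4, these included ITGB1, ITGA3 and ITGA5 (integrin chains that bind matrix), TLN1 (talin, which links integrins to actin), PXN (paxillin), MYLK (myosin light chain kinase), CD44 and TPM1. Long genes were linked more often in general, and the group's share was above that of other genes at either length: 8 of 14 group members of 100 kb or more were linked, against 4.30% of coding genes of that length, and 8 of 12 shorter ones, against 1.97%. The integrin genes ITGAV and ITGA2, and FLNA, ACTN1, VCL and ZYX, were not linked, although all but ITGA2 had Pol II at an end in each list.

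Of 18 genes and targets of the YAP and TEAD factors of the Hippo pathway, 6 were linked (33.3%, interval 16.3 to 56.3): WWTR1, VGLL4, CCN1, AMOTL2, AXL and NT5E. Of 20 matrix and mesenchymal genes, 6 were linked (30.0%, interval 14.5 to 51.9), among them FN1, COL4A1 and COL4A2 (basement membrane collagen), LOXL2 (a collagen crosslinking enzyme) and FBN1. COL1A1, SPARC, TNC and VIM had Pol II at an end in each list and no domain within reach. In the TGF-beta group 4 of 16 were linked, namely TGFB2, SMAD3, INHBA and the inhibitor SMAD7, while the receptor genes TGFBR1 and TGFBR2 were not. Of 15 growth factor receptor genes 4 were linked, EPHA2, EGFR, MET and IGF1R, and of 15 factors of the epithelial to mesenchymal transition 2 were, NFIB and ETS1.

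None of 14 AP-1 and early response genes was linked, although 11 of them had Pol II at an end in each list, and none of 19 genes of retinal pigment epithelium function was, of which 6 had Pol II there. Groups for epithelial junctions and keratins (15 genes), blood, neuron and hepatocyte (16 each) had no linked gene either, and the housekeeping and muscle groups of 16 had 1 each, RPLP0 and DES. With 14 to 19 genes in a group, a count of 0 allows a share of up to 16.8% to 21.5% by the Wilson interval, which is above the 2.36% of all coding genes, so a count of 0 says little for any of these groups. Links by distance do not show which gene a domain acts on, and the groups were assembled with results of these data known.

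The rule was also applied to each Pol II list alone. With list 1 alone it found 194 of the 300 domains (64.7%), with 192 of its own 300 (64.0%) overlapping them, and with list 2 alone 201 (67%) and 199 (66.3%). The domains of the single lists met each other in 168 of list 1 (56.0%) and 167 of list 2 (55.7%). All of the first 20 domains were among the 300 of each list, but 12 of them were among the first 20 with list 1 alone and 8 with list 2 alone. Ranking by summed region bases kept 245 of the 300 and 18 of the first 20, and ranking by summed Pol II fold kept 184 and 10. Both the order of the first domains and membership of the 300 thus depended on the list and on ranking by number or by fold.

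By chromosome, chromosome 1 held the most domains, 39 (13.0%, with 10.4% of distal regions), followed by chromosome 10 with 27 (9%, with 5.82% of distal regions) and chromosome 3 with 25 (8.33% and 7.60%). Chromosome 15 held 17 (5.67% and 3.51%), chromosome 2 also 17 (5.67% and 8.95%), and chromosome 13 held 4 (1.33% and 2.42%). On chromosome 10, 20 of the 27 domains lay beyond 60 Mb, on the long arm, part of which this line is known to carry in an extra copy. Members were 14.0% of distal regions beyond 60 Mb and 9.12% before it. The median fold of distal regions was 6.16 and 5.03 beyond 60 Mb, and 6.24 and 5.33 over all distal regions. A part of copy number in these values was not tested.

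**Figure D5:**
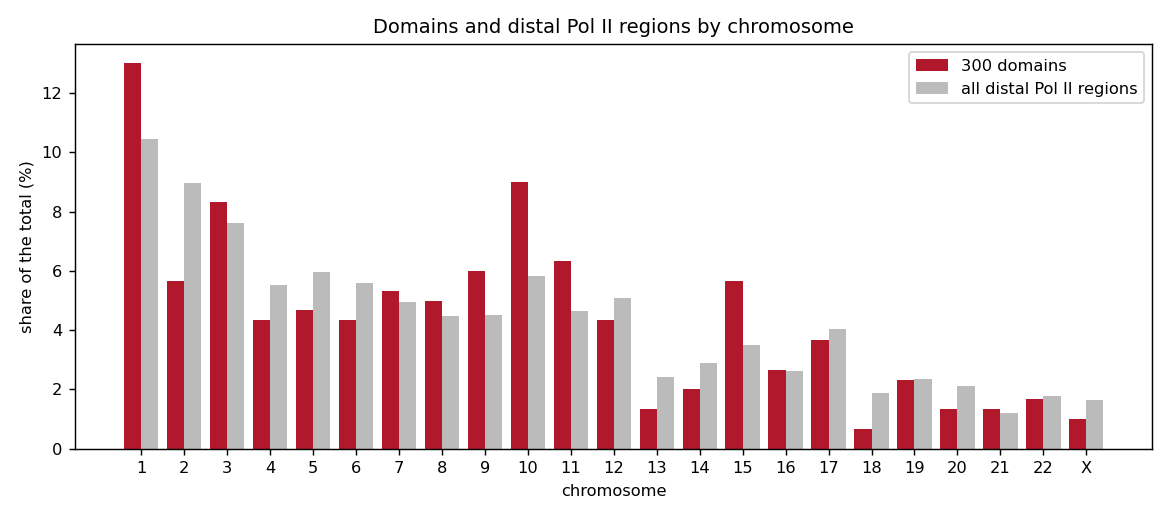
Share of the 300 domains (red) and of all 19504 distal Pol II regions (grey) on each chromosome, in percent. Chromosomes 1, 10, 11 and 15 hold a larger share of domains than of distal regions, and chromosomes 2, 13 and 18 a smaller one.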

How the data were processed

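The authors deposited 4 peak lists in narrowPeak layout, each merged over libraries that differ in T number; what R and T stand for is not stated. Per the submitters' processing notes, BWA, SICER and deepTools were used with build hg38; not given in the sources used here are the tools' roles and versions, the peak caller's threshold and any control. Column 7, a ratio the authors deposited, is taken as the peak's fold enrichment, the deposited -log10 q in column 9 as its significance, and the other value the authors gave, in column 10, as the summit offset. The fold of a region is that of its strongest peak in the list. With no counts, depth is unknown.

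Regions, stitching, overlaps of 1 bp or more and Wilson intervals (95%) were computed with pandas 2.3.3 and numpy 2.4.6 under Python 3.11.15 and plotted with matplotlib 3.10.9, and the code was tested on simulated data. RefSeq genes, promoters and microRNAs are of GRCh38.p14. Sequences of the members were not used here. The members, gene groups and comparisons were chosen with earlier results of these data known. Domains named were the first 20, the 5 highest and 5 lowest in mean Pol II fold, the 5 highest and up to 5 lowest in H3K4me1 share, the 5 longest and those at the limit, plus the 5 strongest members and up to 4 linked genes a group; further genes named were chosen after their values were seen. Alternatives were each list alone, other distances, gaps, numbers and orders of domains, and stricter peaks.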

Additional observations from a re-analysis of the deposited data

How the results depend on the processing

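No setting that was run changed the sign of the difference in H3K4me1 share between members and other distal regions. Leaving out the 10 domains without H3K4me1 was added after the data were seen. It left 85.8% of members on H3K4me1, still below the 89.8% of other distal regions. For members outside coding genes it gave 95.2%, against 92.2% of others not filtered in that way. The 10 were picked out by their H3K4me1 value, so both member shares could only rise and the 95.2% decides nothing. The size of the difference depended on several settings. Leaving out 1 list gave -6.47 to -1.07 points, the latter without Pol II list 2. A gap of 5 kb gave -11.2, a gap of 25 kb -3.61, ranking by summed Pol II fold -2.44, and regions outside coding genes -12.9. Within mean folds under 4, of 4 to 8 and of 8 or more it was -2.19, -0.689 and -0.389. The member share itself was 69.2% to 84.6% without 1 list and 86.9% when ranked by summed fold. The median H3K4me1-covered share of a domain was 18.8% to 21.7% without 1 list, 22.05% with coding gene ends only, 34.6% and 17.1% with gaps of 5 and 25 kb, 22.09% for 150 domains and 21.5% with peaks above the median -log10 q. Domains with every region in 1 coding gene were 66.0% to 67.3% without 1 list, 59.7% and 75.3% with distal limits of 1 and 5 kb, 60% with coding gene ends only, 73.3% and 45.3% with gaps of 5 and 25 kb, 68.0% and 66.0% for 150 and 600 domains, 57.7% when ranked by summed fold and 64.0% with the stronger peaks. Member counts were 925 with a gap of 5 kb, 948 for 150 domains and 2552 for 600. The causes were not tested. No paired analysis was possible because the results come from no test and the lists are already merged. The unknown depth of the lists limits every share, since a missing peak cannot be told from a shallow library.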

Other observations

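Of the 64 domains with no region in a coding gene, 22 had regions in a long non-coding RNA gene. NEAT1, the architectural RNA of nuclear paraspeckles, held 3 of the 4 regions of a domain at chr11:65418760-65436933, with mean Pol II folds of 2.20 and 1.94 and every region on H3K4me1. ERRFI1-DT held a domain of 4 regions 50.8 kb from ERRFI1, a feedback inhibitor of the EGF receptor, with mean folds of 8.72 and 6.16 and 36.8% of its span in H3K4me1 regions. COMETT, beside CAV1, held 4 regions with mean folds of 9.63 and 7.20. In LOC105371912, 13.2 kb from SOCS3, an inhibitor of cytokine signalling, 4 regions had mean folds of 5.99 and 5.14.

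Domains with no region in a coding gene had a median of mean folds of 6.60 in list 1 and 5.44 in list 2, and those with a region in one 5.67 and 4.53. Their median H3K4me1-covered shares were 23.7% and 22.8%. Of their 319 regions 76.8% were on H3K4me1, and of the 1262 regions of the others 83.9%. Without the 10 domains that held no H3K4me1 base, the first share was 95.3% of 257 regions. The 10 were picked out by their H3K4me1 value and all lay in the first group, so leaving them out was bound to raise its share. The 83.9% was not filtered in that way, so no order is read from the 95.3%.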
